A study of Mus musculus with 10 samples.

Results

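Cardiac fibroblasts are the connective tissue cells of the heart wall, and the 35 genes described here are ones that mark them or that encode the matrix proteins around them. They were taken as a list of gene symbols, with no measured value used in the rule. Earlier results of these data were known when the list was chosen. The genes were divided by known function into 6 roles. All 35 were found on the array, through 41 probes, and all 35 were among the 22016 genes tested. Total RNA of heart ventricle from 10 male mice had been labelled with Cy5 and hybridised to 2-colour Agilent arrays, each against the same Cy3-labelled pool of liver, brain, heart, kidney and spleen RNA. The control group was 5 mice with no treatment, and the aldosterone group was 5 mice given aldosterone, a salt-retaining hormone of the adrenal cortex that binds the mineralocorticoid receptor. The labels give a duration of 7 days for both groups and a separate mouse for each sample. The titles carry the mark Ctrl for all 10 hearts, of both groups, and its meaning is not stated in the labels, so control is used below for the mice with no treatment. Strain, age, dose and route of the hormone are missing from the labels at hand. The scanner data cover 5 control and 4 aldosterone hearts, while the deposited value table also holds aldosterone replicate 4.

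Fibroblasts hold the heart muscle together by making and organising the extracellular matrix. They carry the platelet-derived growth factor receptor alpha and other surface proteins, secrete collagens, proteoglycans and elastic fibre proteins, and take on a contractile, matrix-producing state under stress. Elastic fibres are built on a scaffold of fibrillin microfibrils, to which microfibril-associated proteins and fibulins bind, and small leucine-rich proteoglycans coat collagen fibrils and set their thickness. Aldosterone excess is known for cardiac fibrosis, the build-up of such matrix between the muscle cells.

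Promoter sequences are printed for 4 members to show what the results below concern: Vim, Mfap2 and Fstl1, the members of smallest p in the comparison, and Ogn, whose difference lay below 0. Each is the 250 bases before the annotated start, on the + strand, 5′ to 3′, from RefSeq's GRCm38.p6 assembly, with capitals marking the matches to the motifs searched. The windows are chr2:13574061-13574310 for Vim, chr4:141010174-141010423 for Mfap2, chr16:37776805-37777054 for Fstl1 and chr13:49607765-49608014 for Ogn. The table gives Mfap2 a further start close by, whose window chr4:141010431-141010680 (68.8% GC) holds 2 GC boxes and neither of the matches marked here.
Vim: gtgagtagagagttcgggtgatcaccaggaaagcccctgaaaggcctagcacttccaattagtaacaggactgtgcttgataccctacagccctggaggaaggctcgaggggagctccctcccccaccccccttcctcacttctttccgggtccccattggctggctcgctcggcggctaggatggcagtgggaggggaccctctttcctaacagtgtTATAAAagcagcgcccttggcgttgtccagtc
Mfap2: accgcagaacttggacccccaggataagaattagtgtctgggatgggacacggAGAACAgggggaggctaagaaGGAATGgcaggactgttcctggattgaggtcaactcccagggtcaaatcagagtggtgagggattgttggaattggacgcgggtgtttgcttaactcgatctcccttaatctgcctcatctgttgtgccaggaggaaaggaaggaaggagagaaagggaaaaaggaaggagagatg
Fstl1: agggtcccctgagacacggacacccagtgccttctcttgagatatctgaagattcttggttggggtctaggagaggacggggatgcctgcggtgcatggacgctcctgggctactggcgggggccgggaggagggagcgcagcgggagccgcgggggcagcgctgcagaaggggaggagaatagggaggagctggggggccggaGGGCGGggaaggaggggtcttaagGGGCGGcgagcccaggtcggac
Ogn: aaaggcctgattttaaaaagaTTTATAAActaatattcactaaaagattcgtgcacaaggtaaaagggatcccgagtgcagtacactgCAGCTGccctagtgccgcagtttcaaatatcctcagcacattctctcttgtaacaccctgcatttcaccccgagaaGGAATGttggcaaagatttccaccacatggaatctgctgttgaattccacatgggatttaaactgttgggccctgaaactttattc
Over the 24 members with an entry, 31 starts were searched on both strands for 6 motifs, beside all 32851 starts of the table. The GC box GGGCGG was in 15 member windows, 48.4% against 32.7% of all windows. The E-box CAGCTG was in 8, 25.8% against 13%. The TATA motif TATAAA was in 5, 16.1% against 12.4%, and that of Vim is the run of capitals near the end of its window. The motif AGAACA, which steroid receptors bind, was in 6, 19.4% against 16.1%. The TEAD motif GGAATG was in 3, 9.68% against 12.6%, and the AP-1 motif TGANTCA was in 1, 3.23% against 6.75%. Windows of 1 gene can overlap, and the median GC content was 57.6% in member windows and 52.4% in all windows. A match describes the letters alone.

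All values below are log2 ratios of a heart's Cy5 signal to the Cy3 reference, and all differences are aldosterone minus control on that log2 scale. A value above 0 therefore means more signal in that heart than in the mixed-tissue pool, and values of different genes are not compared. In Cy5, 64.3% to 70.9% of the 39429 probes of an array exceeded background clearly by the scanner's flag, and the probes used for the 35 members did so on all 9 arrays. The 9 arrays lay on 4 slides, each with both groups, while position on the slide followed the group and cannot be told apart from it. The first principal component of the other genes, after each group's mean was removed, carried 38.5% of their variance and split the hearts across the treatment groups. Controls 1, 3 and 4 and aldosterone 3 and 5 lay above 0 on it, and controls 2 and 5 and aldosterone 1 and 2 below 0. In the value table aldosterone 4 lay below 0 as well. These sets carry no label, and the members' values in each are given beside the results.

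The 35 fibroblast and matrix genes lay mostly higher in aldosterone hearts, by small amounts, and none passed the test by itself. On the scanner arrays 31 of 35 had a difference above 0, against 52.3% of all genes tested, and the median difference was 0.22 against 0.01 over all genes. The differences ran from -0.08 to 0.64, with 11 above 0.30, 11 between 0.15 and 0.30, 9 between 0 and 0.15 and 4 below 0. In limma's test with Benjamini-Hochberg adjustment over all genes, 0 of 35 members had an adjusted p under 0.05, as did 0 of 22016 genes (0%). At an unadjusted p under 0.05, 14 members were called, all higher, where 6.2% of all genes were called in either direction, 4.17% higher and 2.03% lower. The same comparison in the value table of 10 hearts gave 31 of 35 above 0 against 49.9% of all genes, and a median of 0.20 against -0.00032. In that table no member passed (0 of 35), beside 37 of all genes (0.168%, of which higher 0.15%). An unadjusted p under 0.05 was found for 13 members, all higher, against 8.08% of all genes in either direction, 4.88% higher and 3.2% lower. The 2 data sets share 9 hearts and are not independent of each other. In ventricle tissue, more fibroblasts, more RNA per fibroblast and RNA from other cells that express some of these genes cannot be told apart.

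The mean over the 35 members was 0.06, 0.41, 0.10, 0.12 and 0.28 in controls 1 to 5 and 0.50, 0.26, 0.43 and 0.50 in aldosterone 1, 2, 3 and 5. The groups overlapped, since control 2 lay above aldosterone 2 and control 5 lay above it too. Control 1 was the lowest array for 14 members and aldosterone 1 the highest for 14. Both lay on slide 1, together with control 2. The spread was wider among controls than among aldosterone arrays for 23 of 35 members, against 56.1% of all genes. Without aldosterone 1, 9 members had an unadjusted p under 0.05 and lay higher, against 3.3% of all genes, and without aldosterone 5 there were 9 against 3.67%, while 31 of 35 had differences above 0 in both cases. Aldosterone 4, present in the value table alone, was the highest heart for 0 members and the lowest for 1, and its median rank over the members was 7 of 10 hearts counted from the lowest.

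**Figure D1:**
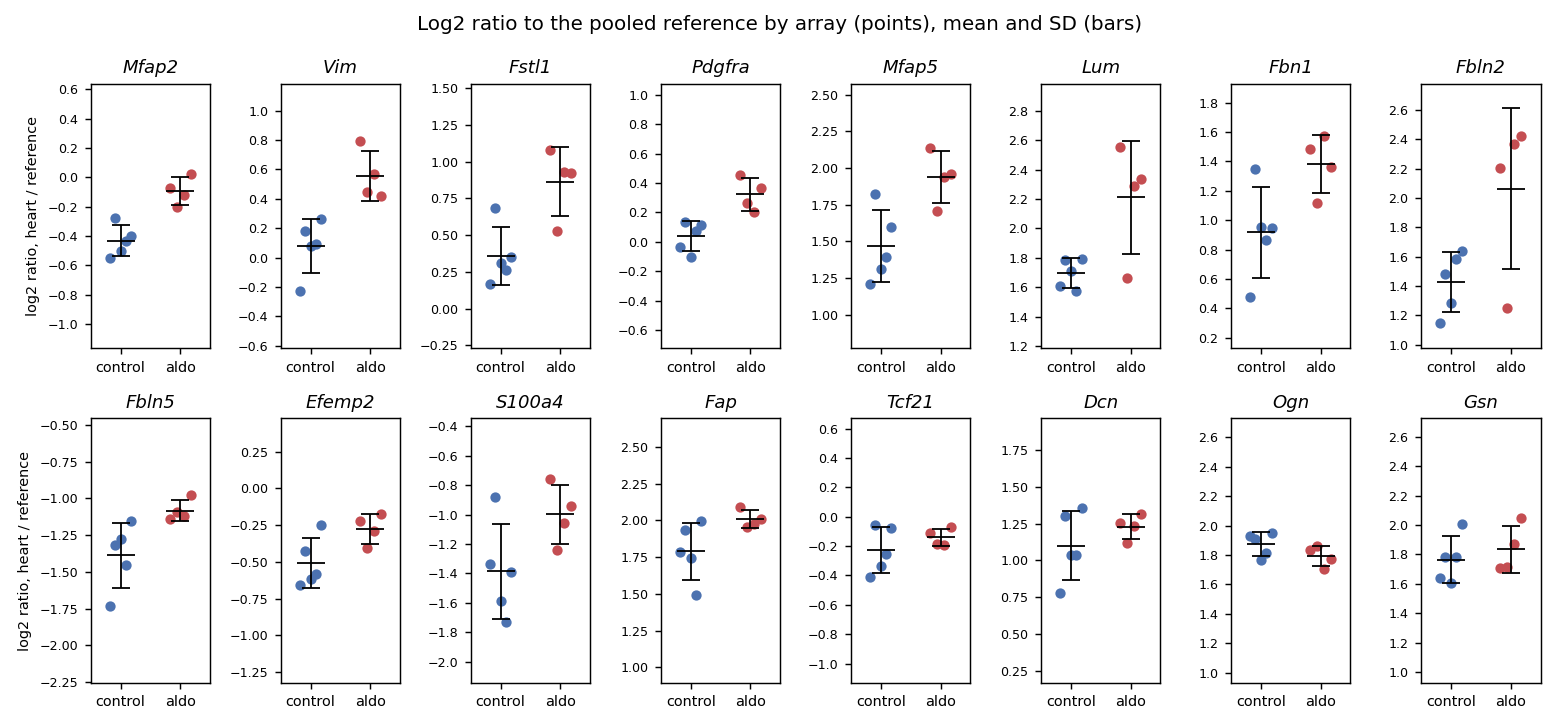
Log2 ratio to the pooled reference (vertical axes, each of the same height in log2 units but its own position) for 16 members. Points are arrays, 5 control and 4 aldosterone (aldo), and bars show the mean and SD; the groups do not overlap in Mfap2, Vim, Pdgfra and Fbln5, and overlap in the other panels.

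Among the 8 genes of the cell surface and fibroblast identity, all 8 had differences above 0, with a median of 0.17, and 3 had an unadjusted p under 0.05. Beside the counts of this and the following roles, 52.3% of all genes lay above 0, and 4.17% had an unadjusted p under 0.05 and lay higher. Pdgfra, the platelet-derived growth factor receptor that defines the lineage, was at -0.04, 0.14, -0.10, 0.07 and 0.11 in controls 1 to 5 and at 0.45, 0.27, 0.20 and 0.37 in aldosterone 1, 2, 3 and 5. Every aldosterone array lay above every control, which held for 4 of 35 members and for 1.47% of all genes. The reverse, every aldosterone array below every control, held for 0 members and for 0.636% of all genes. In the value table these counts were 3 members against 1.35% of all genes and 0 members against 0.563%. The difference of Pdgfra was 0.28 (SE 0.07; adjusted p = 0.404, limma), or 1.22-fold. Over the 10 hearts of the value table its difference was 0.29 (SE 0.07), again with no overlap, and aldosterone 4 stood at 0.64 against a highest control of 0.53.

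Fap, a surface protease of activated fibroblasts, was at 1.78, 1.93, 1.74, 1.49 and 2.00 in controls and at 2.09, 1.96, 1.98 and 2.01 in aldosterone arrays. The aldosterone arrays lay close together, control 5 lay among them and control 4 lay below the rest, with a difference of 0.22 (SE 0.09; adjusted p = 0.789, limma), or 0.15 without control 4. Tcf21, the transcription factor of epicardium-derived fibroblasts, was at -0.41, -0.05, -0.34, -0.25 and -0.08 in controls and at -0.11, -0.19, -0.19 and -0.07 in aldosterone arrays. All aldosterone values fell inside the control range, and the difference was 0.09 (SE 0.08; adjusted p = 0.997, limma), or 0.04 without control 1. Pi16, a marker of a resting fibroblast population, differed by 0.47 (SE 0.21) with control 2, at 2.39, the highest of all arrays. Cd248, the surface glycoprotein endosialin, differed by 0.22 (SE 0.15), or by 0.14 without control 3 and 0.35 without control 2. Ddr2, a collagen-binding receptor kinase, differed by 0.12 (SE 0.10), Thy1, a glycolipid-anchored surface protein, by 0.08 (SE 0.08), and the dipeptidase gene Dpep1 by 0.03 (SE 0.13). None of the last 3 had an unadjusted p under 0.05, and Ddr2 had a second probe that differed by 0.02. Without control 4 Ddr2 differed by 0.05, and without aldosterone 1 Thy1 differed by 0.04.

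The 5 small leucine-rich proteoglycans diverged, with 3 above 0 and 2 below. Lum, which encodes lumican, was at 1.61, 1.79, 1.71, 1.58 and 1.79 in controls and at 2.55, 1.66, 2.29 and 2.34 in aldosterone 1, 2, 3 and 5. Aldosterone 2 stood among the controls while the other 3 stood above all of them. The difference was 0.52 (SE 0.15; adjusted p = 0.492, limma), or 1.43-fold, and without aldosterone 2 it was 0.70. Dcn, which encodes decorin, was at 0.78, 1.30, 1.03, 1.03 and 1.35 in controls and at 1.25, 1.12, 1.23 and 1.32 in aldosterone arrays. The groups overlapped throughout, and the difference was 0.13 (SE 0.11; adjusted p = 0.987, limma), or 0.05 without control 1. Dcn and Lum are neighbours on mouse chromosome 10, with 0 annotated genes between them. Bgn, which encodes biglycan, differed by 0.16 (SE 0.07), with aldosterone 3 the highest array at -0.42. Ogn, the osteoglycin gene, differed by -0.08 (SE 0.06) and the fibromodulin gene Fmod by -0.06 (SE 0.07), and neither had an unadjusted p under 0.05. Fmod was at -0.011 without control 2 and Ogn at -0.05 without aldosterone 3. The probe of Fmod was dim, with a Cy5 signal of 78 to 116 where the arrays' median local backgrounds were 57 to 59. In the value table Fmod differed by -0.11 (SE 0.19).

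The 10 genes of elastic fibres and microfibrils had a median difference of 0.32, with 8 above 0 and 6 at an unadjusted p under 0.05. Mfap2, a microfibril-associated glycoprotein gene, was at -0.55, -0.27, -0.50, -0.44 and -0.40 in controls and at -0.07, -0.20, -0.12 and 0.02 in aldosterone arrays. All aldosterone arrays lay above all controls, with a difference of 0.34 (SE 0.07; adjusted p = 0.219, limma), the smallest p among the members. Its second probe, also above background on all arrays, differed by 0.05 (SE 0.08), so the 2 probes of Mfap2 disagreed in size. In the value table they differed by 0.55 (SE 0.11) and 0.14 (SE 0.12).

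Mfap5, which encodes a second microfibril-associated glycoprotein, was at 1.21, 1.82, 1.31, 1.39 and 1.60 in controls and at 2.14, 1.71, 1.94 and 1.96 in aldosterone arrays. Only control 2 reached into the aldosterone range, and the difference was 0.47 (SE 0.13; adjusted p = 0.437, limma). Fbn1, which encodes fibrillin-1 of the microfibril core, was at 0.48, 1.35, 0.95, 0.86 and 0.95 in controls and at 1.48, 1.12, 1.57 and 1.36 in aldosterone arrays. Control 2 again lay among the aldosterone arrays and control 1 lay lowest, with a difference of 0.47 (SE 0.15; adjusted p = 0.605, limma). Mfap4, a microfibril-binding protein gene, differed by 0.36 (SE 0.23), with aldosterone 2 at -0.17 and aldosterone 5 at 0.98. Without aldosterone 5 that difference was 0.19, and without aldosterone 2 it was 0.58.

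Among the fibulins, which link microfibrils, elastin and basement membranes, Fbln2 had the largest difference of the 35 members on the scanner arrays. It was at 1.15, 1.48, 1.29, 1.58 and 1.64 in controls and at 2.21, 1.25, 2.37 and 2.42 in aldosterone 1, 2, 3 and 5. The pattern was that of Lum, with aldosterone 2 among the controls and the other 3 above all of them. The difference was 0.64 (SE 0.22; adjusted p = 0.640, limma), or 1.55-fold. Fbln5, needed for elastic fibre assembly, was at -1.73, -1.31, -1.28, -1.45 and -1.16 in controls and at -1.14, -1.09, -1.12 and -0.98 in aldosterone arrays. The groups did not overlap, by a margin between control 5 and aldosterone 1 that was small beside the spread of the controls, and they did overlap in the value table. The difference was 0.30 (SE 0.10; adjusted p = 0.645, limma), and a second probe of Fbln5 was not well above background on any array.

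Efemp2, the fibulin-4 gene, was at -0.66, -0.43, -0.62, -0.58 and -0.25 in controls and at -0.22, -0.41, -0.29 and -0.17 in aldosterone arrays. Control 5 lay inside the aldosterone range and control 2 just below it, and the difference was 0.23 (SE 0.09; adjusted p = 0.731, limma). The other 3 genes of the role lay near 0 on the scanner arrays. Efemp1, the fibulin-3 gene, differed by 0.04 (SE 0.12), and Eln, which encodes elastin itself, by -0.01 (SE 0.08). Eln was at -0.15 (SE 0.17) in the value table and at -0.18 from the scanner's own processed signals. Its probe was dim, with a Cy5 signal of 107.5 to 131 where the arrays' median local backgrounds were 57 to 59. Fbln1, the fibulin-1 gene, differed by -0.01 with an SE of 0.25, since control 3 lay at -0.88 while the other controls lay between 0.11 and 0.73. The sign of all 3 was turned by 1 or more of the settings described in the closing section.

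**Figure D2:**
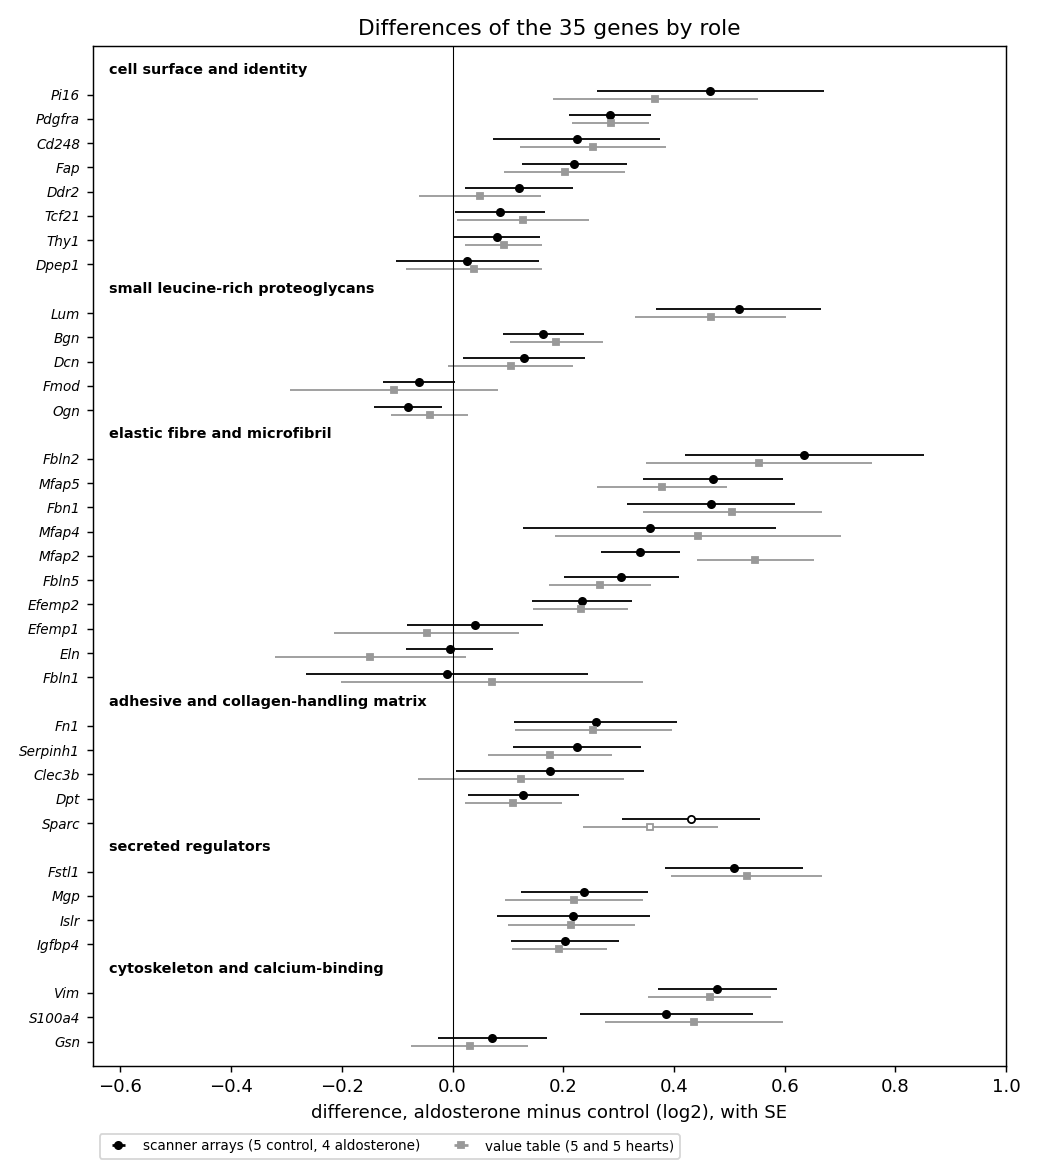
Difference between aldosterone and control hearts for each of the 35 genes (horizontal axis, log2, with SE), by role, on the scanner arrays (black circles) and in the value table (grey squares). Most points lie right of 0, with Fbln2 at 0.64 and Lum at 0.52 the farthest on the scanner arrays, and Ogn at -0.08 the lowest there; Sparc is drawn with open symbols, from its unsaturated probe.

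In the adhesive and collagen-handling group all 5 genes lay above 0, with Sparc counted by its saturated probe. With that probe, none had an unadjusted p under 0.05. Fn1, which encodes fibronectin, differed by 0.26 (SE 0.15), and Serpinh1, the collagen chaperone HSP47, by 0.23 (SE 0.12). Without aldosterone 1 Fn1 was at 0.16, and without control 2 Serpinh1 was at 0.14. Clec3b, which encodes tetranectin, differed by 0.18 (SE 0.17) and Dpt, the dermatopontin gene, by 0.13 (SE 0.10). Clec3b ran from 0.04 without control 3 to 0.28 without control 2, and Dpt was at 0.07 without aldosterone 1. Sparc encodes a collagen-binding matricellular protein, and its brighter probe was saturated in Cy5 on all 9 arrays, so no difference is given for it although the counts and medians over the 35 include it. Its other probe, saturated on none, differed by 0.43 (SE 0.12; unadjusted p = 0.00539, adjusted p = 0.517, limma over all probes), and by 0.36 (SE 0.12) in the value table. A further fit, added after these values were seen, left out probes saturated on every array. In it the unsaturated probe stood for Sparc, 31 of 35 members were again above 0 with a median of 0.22, and 15 had an unadjusted p under 0.05, all higher, against 4.23% of all genes.

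Of the 4 secreted regulators, Fstl1 stood apart in size from the other 3. Fstl1, a follistatin-like glycoprotein gene, was at 0.17, 0.68, 0.31, 0.26 and 0.35 in controls and at 1.08, 0.53, 0.93 and 0.92 in aldosterone arrays. Control 2 lay above aldosterone 2, and the other controls lay below all aldosterone arrays. The difference was 0.51 (SE 0.12; adjusted p = 0.370, limma), or 1.42-fold. Mgp, matrix Gla protein, an inhibitor of calcification, differed by 0.24 (SE 0.11). Islr, the meflin gene, differed by 0.22 (SE 0.14), and Igfbp4, an insulin-like growth factor binding protein gene, by 0.20 (SE 0.10). The last 3 had unadjusted p above 0.05. Mgp was at 0.16 and Islr at 0.13 without aldosterone 3, Islr at 0.35 without aldosterone 2, and Igfbp4 at 0.11 without aldosterone 1.

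Of the 3 cytoskeletal and calcium-binding genes, Vim and S100a4 had an unadjusted p under 0.05. Vim, the intermediate filament gene of mesenchymal cells, which endothelial and blood cells express too, was at -0.22, 0.18, 0.08, 0.09 and 0.26 in controls and at 0.79, 0.44, 0.57 and 0.42 in aldosterone arrays. All aldosterone arrays lay above all controls. The difference was 0.48 (SE 0.11; adjusted p = 0.257, limma), or 1.39-fold, and over the 10 hearts of the value table it was 0.47 (SE 0.11), with no overlap. S100a4, also called fibroblast-specific protein although leukocytes express it, was at -1.34, -0.88, -1.59, -1.73 and -1.39 in controls and at -0.76, -1.24, -1.05 and -0.94 in aldosterone arrays. Control 2 lay inside the aldosterone range and the other 4 controls below it, with a difference of 0.39 (SE 0.16; adjusted p = 0.751, limma). Its second probe differed by 0.30 (SE 0.17). Gsn, the actin-severing protein gelsolin, differed by 0.07 (SE 0.10), or by 0.0013 without aldosterone 5. Its probe was flagged saturated on 0 arrays, and its Cy5 signal ran from 41282 to 65156. That of Dcn, also flagged on 0 arrays, ran from 36717 to 61283.5. The saturated probe of Sparc stood at a median of 65206. Whether this ceiling limits the differences of Gsn and Dcn was not tested.

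On slides 1 to 4, 29, 28, 28 and 28 of the 35 members were higher in the aldosterone array, with median differences of 0.22, 0.14, 0.29 and 0.20. Of all genes, 55.5%, 58.1%, 47.5% and 46.7% were higher on those slides, with medians of 0.02, 0.04, -0.01 and -0.01. Slide 1 held 2 controls and 1 aldosterone array and the others 1 of each, so single slides allow no test. On all 4 slides 18 members were higher, against 7.68% of all genes, and Pdgfra, Vim, Fstl1, Mfap2, Mfap5 and Fbn1 were among them. On slide 2, which held aldosterone 2, Mfap4 differed by -0.66, Lum by -0.05 and Fbln2 by -0.04, while on slide 3 the same genes differed by 0.93, 0.71 and 0.79. With slide as a block, 32 of 35 were above 0, with a median of 0.23, and 13 had an unadjusted p under 0.05, all higher, against 3.77% of all genes.

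The hearts above and below 0 on the first principal component were also compared apart, a division made after seeing the data and from the same arrays. Control 2, the control of highest mean over the members (0.41), lay below 0. So did aldosterone 2, the aldosterone array of lowest mean (0.26). With so few arrays in each set, the medians depend on where these arrays fell. Among the 3 control and 2 aldosterone arrays above 0, 32 of 35 members were higher, against 51.1% of all genes, with a median of 0.33, and 20 had an unadjusted p under 0.05, all higher, against 4.21% of all genes. Among the 2 control and 2 aldosterone arrays below 0, 20 of 35 were higher, against 51.7% of all genes, with a median of 0.02. There 2 had an unadjusted p under 0.05 and lay higher, against 3.9% of all genes, and 1, Fbln1, lay lower. In the value table, where the set below 0 has 3 aldosterone hearts, the medians were 0.39 and 0.04, with 17 members against 4.11% of all genes and 2 against 4.02% at an unadjusted p under 0.05 and higher. Fbln2 differed by 1.06 above and 0.17 below, Mfap4 by 0.85 and -0.17, and Dcn by 0.33 and -0.14. Pdgfra, with 0.31 and 0.23, and Vim, with 0.51 and 0.39, had like values in both.

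In limma's test of the difference between the sets, with Benjamini-Hochberg adjustment, 0 of 35 members and 0 of 22016 genes (0%) passed. The smallest adjusted p of a member was 0.989. At an unadjusted p under 0.05 there were 9 members, against 4.6% of all genes. They were Islr, Efemp2, Dcn, Mgp, Tcf21, Fbln2, Mfap4, Gsn and Mfap5. With the component as a covariate in place of a split, 16 members had an unadjusted p under 0.05, all higher, against 6.18% of all genes. The median difference of 0.22 and the 31 members above 0 were those of the main fit by construction. Group means were removed before the component was taken, so the covariate could change only the SE and p of the members. No member passed adjustment in that fit (0 of 35), beside 5 of all genes. The part of the sets in the result was not tested beyond these values.

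**Figure D3:**
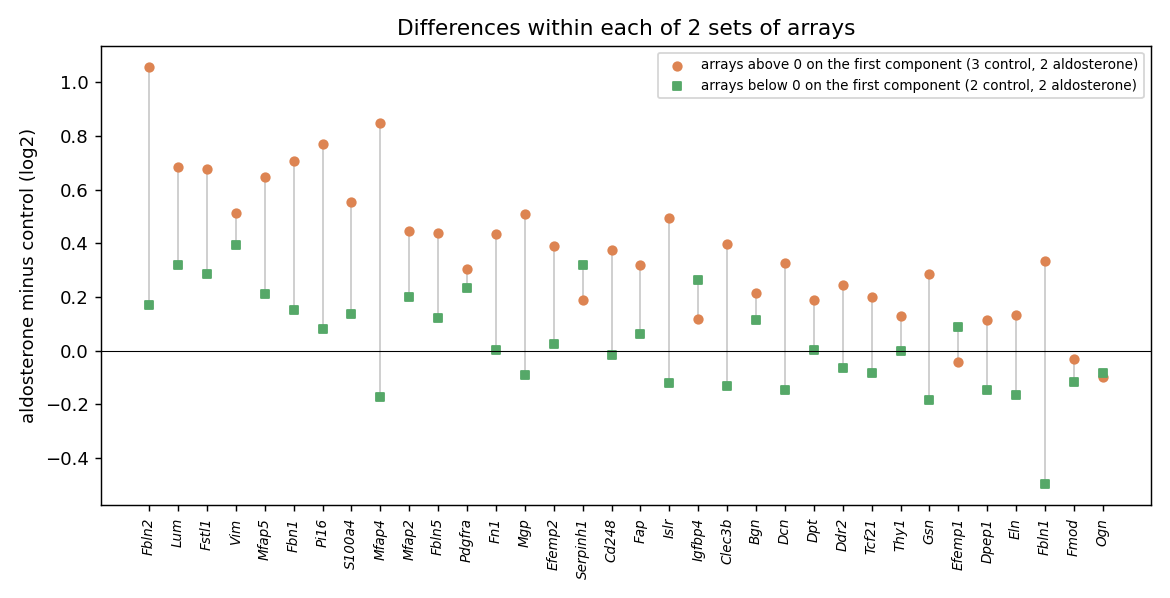
Difference between aldosterone and control arrays (vertical axis, log2) for 34 of the 35 genes, Sparc with its saturated probe left out, within the arrays above 0 on the first principal component of the other genes (orange circles, 3 control and 2 aldosterone) and within those below 0 (green squares, 2 and 2). Genes are ordered by their overall difference. The medians of the 34 genes are 0.35 for the orange circles and 0.01 for the green squares, against 0.003 and 0.005 over all genes.

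Other genes of the matrix programme lay higher too. Of 34 tested collagen, collagen processing and other matrix genes outside the 35, 28 were above 0, with a median of 0.21, and 17 had an unadjusted p under 0.05, all higher, with 0 passing adjustment. Beside this and the following lists, 52.3% of all genes lay above 0 on the scanner arrays. At an unadjusted p under 0.05, 4.17% of all genes were higher and 2.03% lower. In the value table these shares were 49.9%, 4.88% and 3.2%. Those of smallest p were Loxl1 and Loxl2, which crosslink collagen and elastin, at 0.55 (SE 0.13) and 0.55 (SE 0.15), Pcolce, an enhancer of procollagen cleavage, at 0.38 (SE 0.09), and the fibrillar collagen gene Col5a2 at 0.28 (SE 0.08). Of 20 tested genes of activated fibroblasts, 15 were above 0, with a median of 0.18, and 6 had an unadjusted p under 0.05, all higher. Thbs1, which encodes the matricellular protein thrombospondin-1, was the highest of the 4 of smallest p at 0.69 (SE 0.12; adjusted p = 0.132, limma). Meox1, a transcription factor gene of activated fibroblasts, was at 0.62 (SE 0.16), the collagen gene Col8a1 at 0.55 (SE 0.15) and Sfrp2, a secreted Wnt modulator, at 0.26 (SE 0.10). None of the 4 passed.

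On the scanner arrays the median of each other cell type's markers, apart from red blood cells, lay nearer to 0 than the members' 0.22. Those of macrophages, at 0.24 in the value table, and adipocytes, at -0.52 there, lay farther from 0 than the 0.20 of the members in that table. The median difference was -0.04 over 12 cardiomyocyte genes, -0.05 over 12 endothelial genes and -0.03 over 10 smooth muscle and pericyte genes, with 5, 4 and 4 of them above 0. The cardiomyocyte list, which marks the labelled tissue, had a mean log2 ratio between 1.22 and 1.53 in controls and between 1.29 and 1.49 in aldosterone arrays. Of 11 macrophage genes 9 were above 0, with a median of 0.10 and none at an unadjusted p under 0.05, and in the value table all 11 were above 0, 1 of them at an unadjusted p under 0.05. The macrophage mean lay between -1.72 and -0.86 in controls and between -1.37 and -0.98 in aldosterone arrays. All 7 adipocyte genes were below 0, in both data sets, with a median of -0.09 on the scanner arrays. An unadjusted p under 0.05 was found for 1 of 7 there and for 3 of 7 in the value table, and 0 passed. Cfd, the adipsin gene, named after its values were seen, differed by -0.99 (SE 0.29) on the scanner arrays and by -1.64 (SE 0.47) in the value table. The 8 lymphocyte genes had a median of -0.07 and the 6 Schwann cell genes one of 0.08. For epicardial and mesothelial cells 4 of 10 markers were never above background, namely Upk3b, Upk1b, Lrrn4 and Bnc1, and the 6 tested had a median of -0.00. The 6 tested valve and tendon genes had a median of -0.03 and the 6 immediate early genes one of 0.09.

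Red blood cell genes were the list with the highest median. All 4 tested were above 0, with a median of 0.53, and 3 had an unadjusted p under 0.05. They were uneven in size. The globin gene Hba-a1 was near 0, at 0.03 (SE 0.14). Hbb-b2 was at 1.06 (SE 0.28), Alas2 at 0.83 (SE 0.21) and Slc4a1 at 0.23 (SE 0.10). Their mean lay between -3.36 and -2.46 in controls and between -2.39 and -1.92 in aldosterone arrays, with no overlap, and 2 of the 6 markers on the array were never above background. The macrophage and red blood cell medians had the sign of that of the fibroblast and matrix genes and the adipocyte median the opposite sign, and their part in the result was not tested. Within the arrays below 0 on the first component the red blood cell median was 0.72 where that of the 35 members was 0.02, and within those above 0 it was 0.33 where theirs was 0.33.

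**Figure D4:**
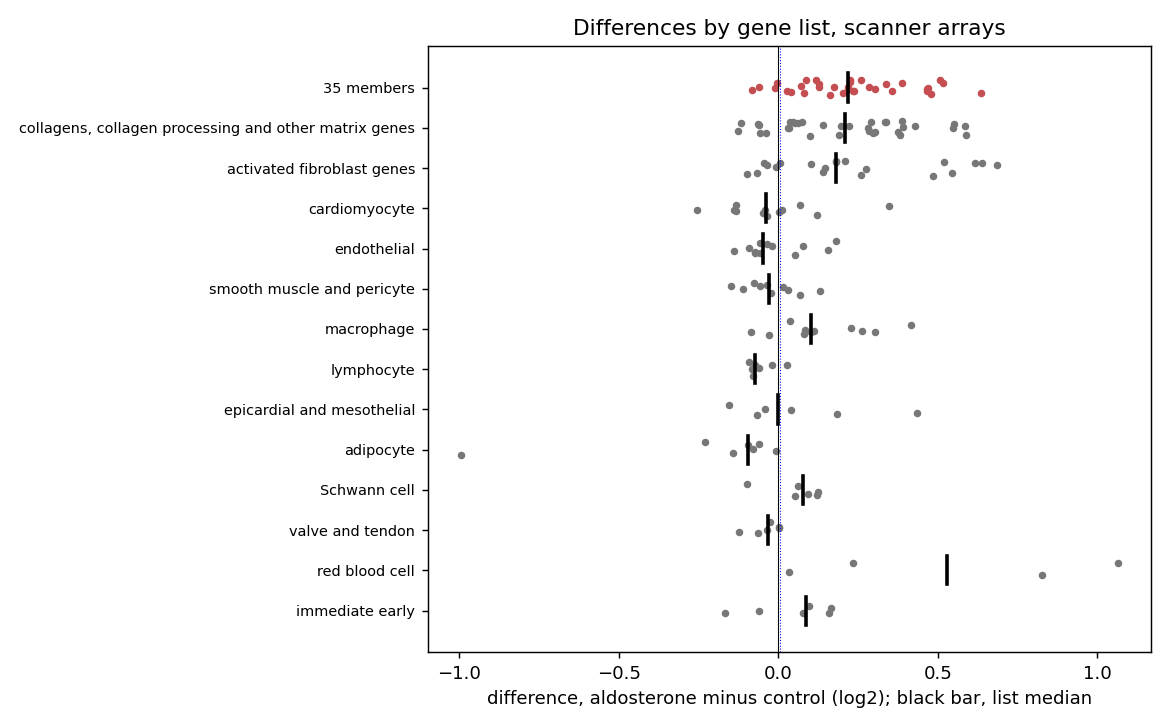
Difference between aldosterone and control arrays (horizontal axis, log2, scanner arrays) for the members (red, without the saturated probe of Sparc) and for 13 other gene lists (grey). Each point is a gene, the black bar is the list's median and the dotted line is the median of all genes tested; the bars of the members, the matrix list and the activated fibroblast list lie at 0.22, 0.21 and 0.18, and that of red blood cell genes at 0.53.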

How the data were processed

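Per the file headers and the submitters' processing notes, the authors read the 9 arrays with Agilent Feature Extraction 10.7.3.1, and the deposited files give spot intensities in Cy5 and Cy3 and a log10 ratio of Cy5 over Cy3. For the 10 hearts the authors also deposited log2 ratios in a value table. These matched the scanner's ratio, turned to log2, with Pearson correlations of 0.996 to 1.00 over probes, which gives their scale and direction. Column medians were -0.01 to 0.12, with no centring seen. Scanner arrays and value table were fitted separately.

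Median signals and median local backgrounds were used. Local backgrounds over 20 units from an array's median were replaced by that median, because stray values on control 1, up to 11739.5 units, distort the background model. Normexp with an offset of 50 and loess within arrays followed (R 4.3.3, limma 3.58.1), with control spots at weight 0. Control spots and 1667 outlier spots were left out, spots of a probe were averaged, probes well above background in Cy5 on at least 4 arrays were kept, and the probe of highest mean signal stood for a gene. Accessions were matched to RefSeq records of GRCm38.p6, which named 26581 of 39429 probes. The test was limma's linear model with empirical Bayes variances, two-sided, with p-values adjusted by Benjamini and Hochberg's method over every gene tested and called under 0.05. The fit was tested on simulated data. The number of arrays limits the precision.

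The 35 members and the 13 other lists were chosen with earlier results of these data known. Values in every array are given for the 12 members of smallest p on the scanner arrays and for Pdgfra, Tcf21, Dcn and Vim. Outside the 35, the 4 genes of smallest p in the matrix and activated fibroblast lists are named. Alternatives changed the background, normalization, filters, probe choice, blocks, variance model and samples.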

Additional observations from a re-analysis of the deposited data

Results flagged for a closer look

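Among 70 groups of a member's values on the scanner arrays 3 held an array far from the others of its group, and 2 of 70 in the value table did. About 1 in 20 groups would by chance. Aldosterone 3 was the highest of its group for Bgn, at -0.42 with the next array at -0.60. It was the lowest of its group for Efemp1, at -0.18 with the next at 0.32. For Fmod control 2 was the highest control, at -0.71 on the scanner arrays with the next at -0.96, and at -1.17 in the value table with the next at -1.98. In the value table aldosterone 1 was the lowest of its group for Fmod, at -2.36 with the next at -1.94.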

How the results depend on the processing

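No member passed adjustment under any alternative run on the scanner arrays or in the value table. On the scanner arrays the members above 0 numbered 30 to 33 and the median 0.18 to 0.26 when single arrays were left out, and in the value table they were 27 to 32 and 0.17 to 0.26. The count of members higher at an unadjusted p under 0.05 ran from 9 to 18 and from 9 to 17. Of all genes, 3.02% to 4.82% and 3.75% to 5.79% were higher at that threshold. With local backgrounds as read it was 9 on the scanner arrays, against 2.02% of all genes, where the main fit had 14 against 4.17%. In the hearts below 0 on the first component, a split added after seeing the data, 20 members were above 0 on the scanner arrays, with a median of 0.023. At an unadjusted p under 0.05, 2 lay higher, against 3.9% of all genes, and 1 lower, against 2.69%. The value table gave a median of 0.037 and 2 higher, against 4.02%. In the hearts above 0 these counts were 20 on the scanner arrays, against 4.21%, and 17 in the value table, against 4.11%. The value table's median there was 0.39. Each split holds fewer samples, and the cause of these changes was not tested. Aquantile normalization leaves ratios as they are by its construction.

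Replicate numbers did not pair the hearts. Same-numbered deviations correlated at 0.06, 0.34, 0.35 and -0.34 on the scanner arrays and at -0.00, 0.16, 0.28, -0.13 and -0.21 in the value table. With the replicate block, 30 members were above 0 on the scanner arrays, with a median of 0.21. An unadjusted p under 0.05 was found for 11, all higher, against 3.93% of all genes. In the value table these were 31, 0.20 and 11, against 4.46%. No member passed in either, beside 2 of all genes on the scanner arrays and 0 in the value table. Under the block Efemp1 was at -0.023 on the scanner arrays.

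Several members turned sign. In the hearts below 0 on the scanner arrays Cd248 was at -0.014, Clec3b at -0.13, Dcn at -0.14, Ddr2 at -0.062, Dpep1 at -0.15, Gsn at -0.18, Islr at -0.12, Mfap4 at -0.17, Mgp at -0.090, Tcf21 at -0.083 and Thy1 at -0.00029. In the same hearts of the value table Clec3b was at -0.23, Dcn at -0.11, Ddr2 at -0.15, Dpep1 at -0.16, Fbln1 at -0.44, Fn1 at -0.012, Gsn at -0.21, Islr at -0.031, Mgp at -0.099 and Tcf21 at -0.13. In the hearts above 0 Efemp1 was at -0.042, Eln at 0.13 and Fbln1 at 0.33 on the scanner arrays, and Fmod at 0.22 in the value table. With local backgrounds as read Dpep1 was at -0.046 and Eln at 0.00298. Eln was at 0.00097 with median centring and Fbln1 at 0.0074 with the mean of its probes and at 0.052 with slide as a block. Over the 9 hearts with scanner files the value table gave 0.079 for Efemp1 and -0.0073 for Fbln1.

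Leaving out single arrays turned the sign of Dpep1 (-0.056 to 0.11), Efemp1 (-0.024 to 0.17), Eln (-0.072 to 0.039) and Fbln1 (-0.26 to 0.14) on the scanner arrays. In the value table it did so for Clec3b (-0.028 to 0.22), Ddr2 (-0.045 to 0.095), Dpep1 (-0.045 to 0.12), Efemp1 (-0.13 to 0.079), Eln (-0.25 to 0.0036), Fbln1 (-0.18 to 0.25), Fmod (-0.17 to 0.073) and Gsn (-0.022 to 0.093). Signal over background limits the dimmest members, Fmod and Eln among them, and the saturated probe of Sparc gives no value here.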
